A study of Mus musculus with 36 samples.

Results

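Of the 53421 genes in the count table, 9 are described here over all 12 conditions. They were chosen by name: 7 regulators of G-protein signalling (Rgs2, Rgs3, Rgs4, Rgs5, Rgs10, Rgs16 and Rgs17) and both bradykinin receptors (Bdkrb1 and Bdkrb2). Poly(A) RNA came from a wild-type mouse fibroblast-like chondrocyte line, conditionally immortalised, transfected with 50 nM of a pooled siRNA against Ift88 (IFT88siRNA) or of a non-targeting pool (NT). The labels give that concentration and the methods a lower one. Cells were left without IL-1β (0 h) or given it at 10 ng/ml and sampled at 5 later time points from 1 to 24 h, which makes 12 conditions of 3 libraries, 36 in all. No untreated cells were sampled after 0 h, so in every change from 0 h, IL-1β and time in culture cannot be told apart. The labels do not say whether the 3 came from separate cultures, so p-values measure the spread between these libraries, which may be technical.

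G-protein-coupled receptors switch on Gα subunits by loading them with GTP, and RGS proteins speed the hydrolysis of that GTP, which ends the signal. Bradykinin receptors couple mainly to Gq, which drives phospholipase Cβ, calcium release and protein kinase C. The B2 receptor (Bdkrb2) binds bradykinin itself and is made constitutively in many tissues, whereas the B1 receptor (Bdkrb1) binds kinins that have lost their last arginine and is known as an inducible receptor of inflamed tissue.

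Total counts per library were from 19337022 to 38304127, with a median of 21672803.5 in NT and 25873754 in IFT88siRNA. Ift88 was lower in every IFT88siRNA library than in every NT library of the same time point, with group means of 1.86 to 2.92 CPM (the count as a share of the library, scaled to the same total by TMM) against 6.11 to 9.74. Its log2 difference was from -1.47 to -2.12, and its largest adjusted p over the 6 time points was 0.00189 (edgeR quasi-likelihood test, Benjamini-Hochberg adjustment). Of 10 cartilage markers, 5 averaged at least 1 TPM (the level per transcript length as a share of the library) in NT at 0 h, among them Col2a1 (8.35) and Sox9 (11.3), and Acan (0.126), Col9a1 (0.0439), Matn1, Matn3 and Prg4 did not. Of 8 fibroblast markers 7 did, led by Fn1 and Col1a2, and Pdgfrb (81.5), Mcam (44.0), Cspg4 (33.1) and Notch3 (6.30) did of 8 markers of pericytes and smooth muscle. None of 5 endothelial markers did, and of 5 leukocyte markers only Cd68 (10.7) did, which fibroblasts also express.

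The members lie on chromosomes 1, 4, 7, 10 and 12 of GRCm38. Rgs2 (chr1:143999338-144004161, minus strand), Rgs16 (chr1:153740349-153745468, plus), Rgs5 (chr1:169655501-169695813, plus) and Rgs4 (chr1:169741477-169747642, minus) share chromosome 1, with 45663 bases between Rgs5 and Rgs4. Bdkrb2 (chr12:105563226-105595237) and Bdkrb1 (chr12:105603085-105605428) are neighbours on the plus strand of chromosome 12, 7847 bases apart. Rgs3 is at chr4:62559847-62704001 (plus), Rgs10 at chr7:128373621-128418758 (minus) and Rgs17 at chr10:5825663-5922400 (minus). Rgs16 shares 236 exonic bases with the antisense gene Gm28513, which had at most 2 counts in any library, and no other member had an exonic overlap.

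The 250 bases before the RefSeq start sites are shown for the most strongly raised members with a window in the table (Rgs16, Bdkrb2 and the inner start of Rgs3), for Rgs2, which fell, and for Rgs17. They were searched on both strands for 3 motifs: GGNNTTNCC (bound by NF-κB), TGANTCA (bound by AP-1) and TGACGTCA (the cAMP response element). The table (GRCm38.p6) held 9 windows for 8 members, and none for Bdkrb1. Capitals mark the matches, and each window reads 5′ to 3′ along the gene.

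Rgs16 (chr1:153740103-153740352, plus): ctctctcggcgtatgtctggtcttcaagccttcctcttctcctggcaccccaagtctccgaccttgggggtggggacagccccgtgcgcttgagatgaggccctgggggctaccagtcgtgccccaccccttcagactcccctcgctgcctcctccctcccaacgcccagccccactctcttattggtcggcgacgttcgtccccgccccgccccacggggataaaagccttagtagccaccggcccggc
Bdkrb2 (chr12:105562922-105563171, plus): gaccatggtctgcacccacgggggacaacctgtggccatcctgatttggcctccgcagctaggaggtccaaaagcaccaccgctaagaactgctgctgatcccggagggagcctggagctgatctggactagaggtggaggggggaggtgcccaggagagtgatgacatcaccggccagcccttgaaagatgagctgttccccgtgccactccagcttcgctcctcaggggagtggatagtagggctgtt
Rgs3, inner start (chr4:62619422-62619671, plus): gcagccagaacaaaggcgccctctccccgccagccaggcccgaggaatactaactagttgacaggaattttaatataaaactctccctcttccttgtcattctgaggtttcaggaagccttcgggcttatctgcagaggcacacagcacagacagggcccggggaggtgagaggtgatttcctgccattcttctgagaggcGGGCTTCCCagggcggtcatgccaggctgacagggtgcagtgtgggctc
Rgs2 (chr1:144004150-144004399, minus): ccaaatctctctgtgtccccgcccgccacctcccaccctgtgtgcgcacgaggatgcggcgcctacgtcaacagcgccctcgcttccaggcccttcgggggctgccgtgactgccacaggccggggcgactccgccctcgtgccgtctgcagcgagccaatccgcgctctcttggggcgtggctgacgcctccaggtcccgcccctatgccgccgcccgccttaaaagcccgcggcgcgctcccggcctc
Rgs17 (chr10:5922401-5922650, minus): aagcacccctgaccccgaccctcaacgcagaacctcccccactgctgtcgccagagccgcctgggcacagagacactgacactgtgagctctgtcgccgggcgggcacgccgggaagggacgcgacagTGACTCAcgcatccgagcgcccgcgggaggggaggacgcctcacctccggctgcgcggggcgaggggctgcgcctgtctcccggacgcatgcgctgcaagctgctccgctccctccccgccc

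The inner Rgs3 window held GGGCTTCCC, its first base 49 before the start, and the Rgs17 window held TGACTCA, its first base 122 before the start. No letters of these motifs were found in the other 7 windows. Over all 32851 windows of the table, 13.5% held the first motif, 6.75% the second and 1.55% the third. The motifs share no full match with each other, and a match is a description of the sequence only.

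With IL-1β in NT cells, all 8 members that passed the filter on low counts changed over the 5 time points (adjusted p under 0.05 and over 1.5-fold at 1 or more of them). Of all 16048 genes tested 50.0% were called, so the members stand in a table that moved widely. The share of calls that were higher depends on the scaling: on TPM with limma it was 34.8%, 26.8% and 38.0% at 1, 2 and 4 h in place of 49.4%, 47.6% and 56.7%, and 45.7% at 4 h with upper-quartile scaling. Bdkrb1, Rgs16, Bdkrb2, Rgs3 and Rgs4 had their largest change upward, and Rgs2, Rgs17 and Rgs10 downward. Rgs5, which is abundant in pericytes, had 0 to 12 counts per library and 208 in all 36, at most 0.244 TPM, and was not tested. The time points were 1, 2 and 4 h, then 8 and 24 h. At 1 h, 6 of the 8 were called, 4 higher and 2 lower, where 18.7% of all genes were called, 9.22% higher and 9.45% lower. At 2 h it was again 6, 5 higher and 1 lower, beside 27.3% (13.0% and 14.3%). Of all genes 28.7% were called at 4 h (16.3% and 12.4%), and of the members 5, all higher. At 8 h, 6 were higher and none was lower beside 19.7% (11.8% and 7.87%), and at 24 h 6 were higher and 1 lower beside 16.3% (6.61% and 9.71%). In bulk RNA, fewer cells of a type and less RNA per cell cannot be told apart. The plot of CPM by library shows these courses.

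**Figure D1:**
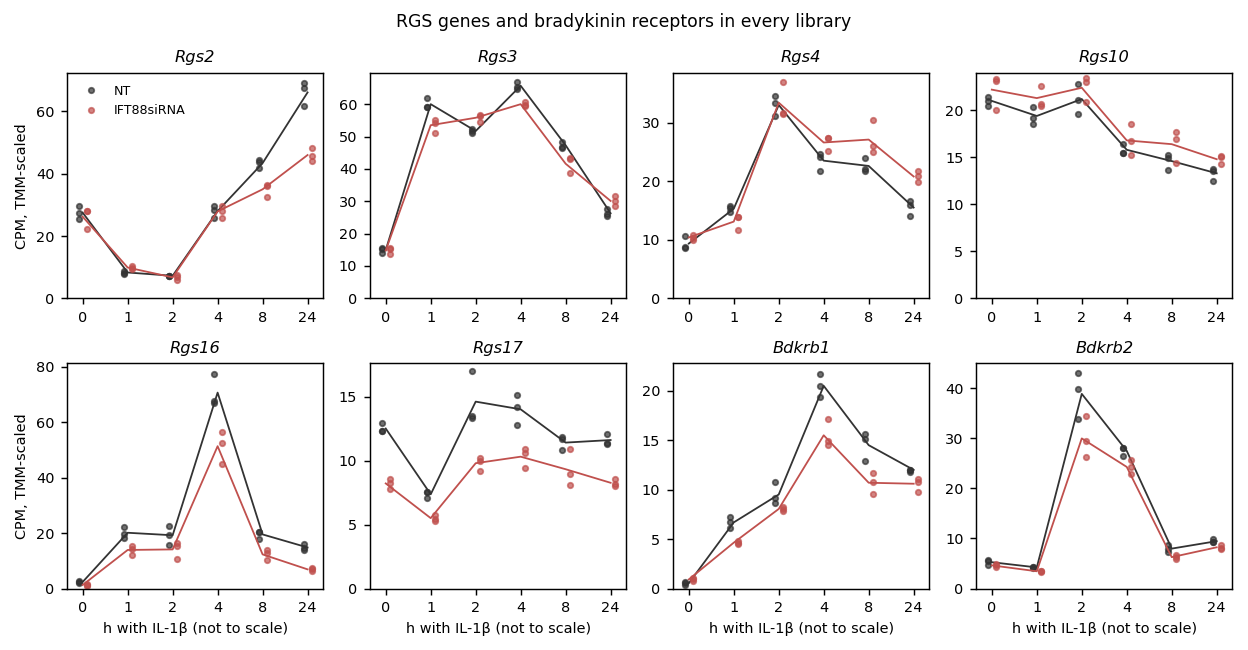
CPM scaled by TMM (vertical axis, from 0, a different range in each panel) of 8 members against hours with IL-1β, spaced evenly. Each dot is a library, black for NT and red for IFT88siRNA, and lines join the means of 3. Rgs2 falls to 7.24 CPM at 2 h and ends at 66.1 in NT, while Rgs16 and Bdkrb1 peak at 4 h and Bdkrb2 at 2 h.

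Both receptor genes rose, at different times. Bdkrb1 was low in NT at 0 h, with 0.549, 0.701 and 0.355 CPM from 13, 17 and 8 counts. It stood at 6.68, 6.12 and 7.28 CPM after 1 h and at 19.4, 20.5 and 21.7 after 4 h, its peak. No library after IL-1β overlapped with any at 0 h. The log2 change was 3.62 (SE 0.188) at 1 h and 5.25 (SE 0.155, adjusted p = 1.88e-19) at 4 h, a rise of 37.9-fold, and at 24 h it was still 4.46 (SE 0.165). The counts at 0 h set the precision of these folds.

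Bdkrb2 did not rise at 1 h, where it had 4.38, 4.04 and 4.23 CPM against 5.66, 4.70 and 5.41 at 0 h. The groups do not overlap, but the log2 change of -0.32 (SE 0.128, adjusted p = 0.0386) was under 1.5-fold. At 2 h it had 39.9, 33.9 and 43.0 CPM, a log2 change of 2.88 (SE 0.0930, adjusted p = 1.98e-18) or 7.38-fold. The level was 28.1, 26.4 and 28.1 CPM at 4 h and 8.77, 7.93 and 7.23 at 8 h. Between 1 and 2 h, therefore, Bdkrb2 rose 9.23-fold (log2 3.21, SE 0.0990) while Bdkrb1 changed by 0.51 (SE 0.110), under the fold threshold, and between 4 and 8 h Bdkrb2 fell by 1.80 on the log2 scale (SE 0.0903). Its remaining rise at 8 h, 1.51-fold, lost its call without NT 0 h replicate 2 or without NT 8 h replicate 1, at log2 changes of 0.52 and 0.53, as it did with upper-quartile scaling (0.55), with no filter (0.58) and on TPM (0.36).

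Compared per length, as TPM within a library, the balance of the receptors turned over. The ratio of Bdkrb1 to Bdkrb2 was 0.275 to 0.391 in the 3 NT libraries at 0 h and 5.41 to 5.94 at 1 h. It returned to 0.827 to 0.930 at 2 h, when Bdkrb2 peaked, and was 2.49 to 2.65 at 4 h, 5.67 to 7.56 at 8 h and 4.44 to 4.68 at 24 h. None of these ranges overlapped with its neighbour in time. By CPM per kilobase of annotated exons the ratio in NT at 2 h was lower, 0.605 to 0.672. The plot of the TPM ratio shows the IFT88siRNA libraries beside those of NT.

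**Figure D2:**
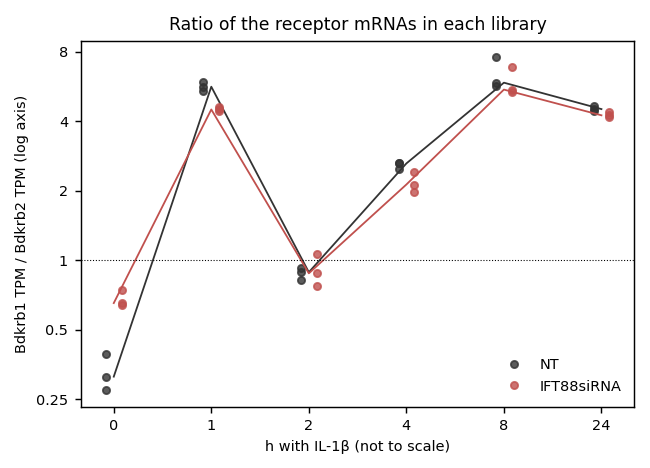
Ratio of Bdkrb1 TPM to Bdkrb2 TPM (log axis, dotted line at 1) in each library against hours with IL-1β, with lines through the medians of 3. NT (black) starts at 0.275 to 0.391 and IFT88siRNA (red) at 0.642 to 0.743, and at 2 h both groups are near 1 on the TPM scale.

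Among the RGS genes, Rgs16, which acts on Gi and Gq subunits, rose most. It had 2.79, 1.90 and 2.44 CPM in NT at 0 h, 19.8, 18.1 and 22.3 at 1 h and 67.7, 66.9 and 77.3 at 4 h. The peak was 29.9-fold above 0 h (log2 4.90, SE 0.131, adjusted p = 2.70e-20), and every library after IL-1β was above every library at 0 h. It came in 2 steps: between 1 and 2 h the difference was -0.06 (SE 0.107, adjusted p = 0.688), between 2 and 4 h it rose by 1.89 (SE 0.0965), and between 4 and 8 h it fell by 1.86 (SE 0.0953).

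Rgs3, a regulator of Gi and Gq signalling with several isoforms, was raised within 1 h and still raised at 24 h. From 14.1, 15.1 and 15.7 CPM at 0 h it went to 61.8, 59.2 and 59.1 at 1 h and 64.8, 65.3 and 66.9 at 4 h. These are log2 changes of 2.0 (SE 0.0513) and 2.15 (SE 0.0512, adjusted p = 2.92e-21). By 24 h it was back to 27.6, 25.3 and 26.1 CPM, a fall of 0.85 (SE 0.0473) from 8 h on the log2 scale, with no overlap with 0 h. Rgs4, also of the Gi and Gq kind, rose later. It had 8.54, 10.7 and 8.78 CPM at 0 h, 15.8, 14.7 and 15.4 at 1 h and 33.3, 34.6 and 31.2 at 2 h. The log2 change was 0.70 (SE 0.0917) at 1 h and 1.81 (SE 0.0838, adjusted p = 2.59e-15) at 2 h, and all later time points stayed above 0 h. On TPM its changes at 1 and 24 h, 0.56 and 0.57, were under 1.5-fold.

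Rgs2, known for its selectivity for Gq, moved in both directions. Its level was 27.3, 25.6 and 29.6 CPM at 0 h, and 7.90, 8.25 and 8.76 at 1 h. At 2 h it was 7.15, 7.29 and 7.29 CPM, a fall to 26.3% of the 0 h level (log2 -1.93, SE 0.0774, adjusted p = 1.46e-16). At 4 h the 3 libraries overlapped with those at 0 h (29.8, 28.4 and 25.9 CPM, log2 0.04, SE 0.0642, adjusted p = 0.659). On TPM that difference was -0.30 (limma on log2(TPM + 1), adjusted p = 0.033). Over tested genes with a mean of at least 1 TPM, changes on log2(TPM + 0.1) lay at the median 0.253 log2 units below those by TMM. Rgs2 rose to 43.9, 41.8 and 44.4 CPM at 8 h and 69.1, 67.4 and 61.8 at 24 h, 1.58-fold (log2 0.66, SE 0.0606) and 2.40-fold (log2 1.265, SE 0.0587, adjusted p = 5.14e-15) above 0 h. The rise at 8 h was under 1.5-fold on TPM (log2 0.51). The step from 8 to 24 h alone was 1.52-fold, and lost its call without NT 24 h replicate 1 or NT 8 h replicate 2 (log2 0.57 and 0.58).

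The 2 remaining RGS genes had changes of under 2-fold. Rgs17, which favours Gz and Gi subunits, dipped at 1 h to 7.05, 7.51 and 7.53 CPM from 12.3, 12.3 and 12.9 (log2 -0.76, SE 0.0975, adjusted p = 4.85e-07). By 2 h it was 1.98-fold above 1 h, at 13.5, 13.3 and 17.0 CPM, and its log2 differences from 0 h were then 0.22, 0.18, -0.13 and -0.11. Rgs10, a small RGS protein that acts on Gi subunits, declined from 20.5, 21.0 and 21.4 CPM at 0 h to 13.8, 13.5 and 12.5 at 24 h (log2 -0.66, SE 0.0680, adjusted p = 1.62e-08). Its log2 changes of -0.40 at 4 h and -0.51 at 8 h had adjusted p of 2.55e-05 and 7.44e-07 but were under 1.5-fold, although on TPM with limma the change at 8 h passed (-0.65, or -0.67 with a pseudocount of 0.1).

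**Figure D3:**
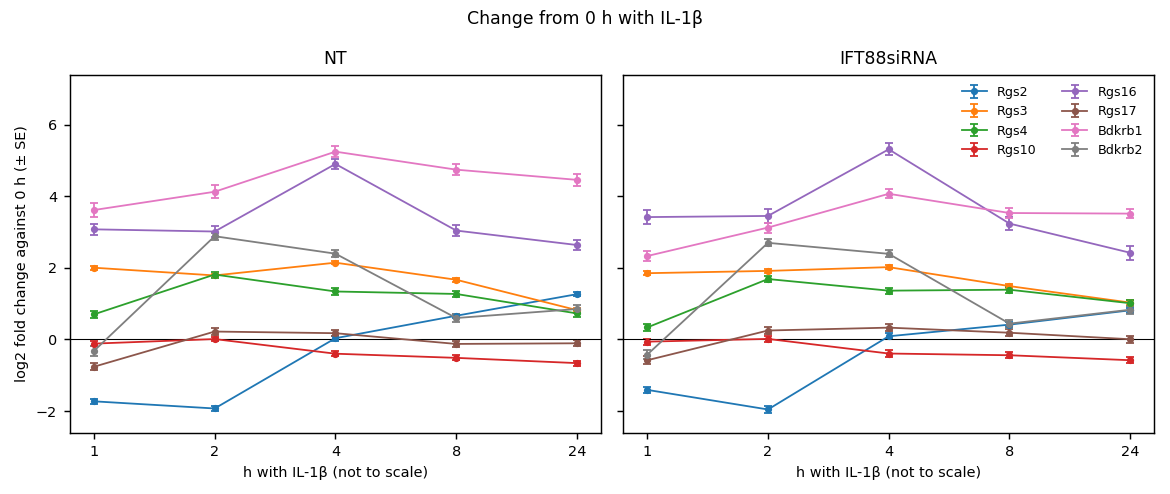
Log2 fold change against 0 h (vertical axis, points, with bars of 1 SE from the edgeR test) in NT (left) and IFT88siRNA (right) at each time point with IL-1β. Bdkrb1 and Rgs16 rise most in both panels, Bdkrb1 reaching 5.25 in NT and 4.07 in IFT88siRNA, and Rgs2 starts below 0 and ends above it.

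Between neighbouring time points in NT, the members took different steps. From 1 to 2 h Bdkrb2, Rgs4 and Rgs17 rose (11.9% of all genes called), and from 2 to 4 h Bdkrb1, Rgs16 and Rgs2 rose (27.1%). From 4 to 8 h Rgs2 rose and Rgs16 and Bdkrb2 fell (16.9%), and from 8 to 24 h Rgs2 rose and Rgs3 fell (13.4%). The shares called of the 8 tested members were not tested against those of all genes.

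The order of the members by TPM changed with IL-1β. In NT at 0 h it ran Rgs10 (54.1 to 62.1 TPM), Rgs3 (34.6 to 37.2), Rgs2 (21.5 to 26.3), Rgs4 (5.62 to 7.07), Rgs17 (3.65 to 5.04), Bdkrb2 (2.23 to 2.63), Rgs16 (1.72 to 2.29), Bdkrb1 (0.698 to 0.873) and Rgs5 (0.0813 to 0.211). Only Bdkrb2 and Rgs16 overlapped among neighbours in that order. At 4 h it was led by Rgs3 (128 to 136 TPM) and Rgs16 (49.6 to 57.4), before Rgs10 (34.0 to 44.7) and Bdkrb1 (27.1 to 28.9). At 24 h Rgs3 (56.4 to 59.2) and Rgs2 (47.8 to 54.7) stood above Rgs10 (32.4 to 35.1). The place of Rgs3 rests on the length used for it, since it has 17 annotated transcripts of 418 to 4698 bases. By CPM per kilobase of its 10801 exonic bases it was 6th in place of 2nd at 0 h and 7th in place of 1st at 4 h, a check chosen after seeing the data.

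Summed over the 7 RGS genes, TPM went from 125 to 138 in NT at 0 h to 249 to 272 at 4 h and 165 to 174 at 24 h. Rgs10 made up 43.2 to 45.1% of the sum at 0 h and 13.7 to 16.5% at 4 h. Rgs3 held 27.0 to 28.2% at 0 h and 58.2 to 60.8% at 1 h, and Rgs16 went from 1.37 to 1.83% at 0 h to 18.3 to 21.5% at 4 h. The share of Rgs2 was 17.2 to 19.1% at 0 h, 2.65 to 3.42% at 2 h and 28.9 to 31.5% at 24 h. These shares carry the same limit on the length of Rgs3.

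**Figure D4:**
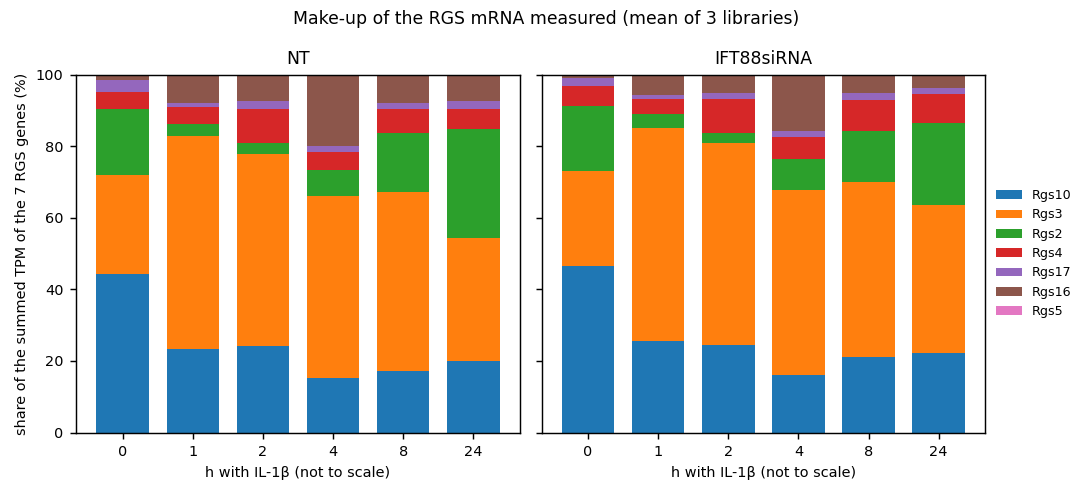
Share in percent of the summed TPM of the 7 RGS genes (stacked bars from 0 to 100, mean of 3 libraries) by hours with IL-1β, NT left and IFT88siRNA right. Rgs10 (lowest segment) averages 44.3% at 0 h in NT and 15.1% at 4 h, Rgs3 above it 59.7% at 1 h, and Rgs16 (top) 20.0% at 4 h.

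In IFT88siRNA cells, 6 of the 8 tested members changed with IL-1β over the 5 time points (48.2% of 16129 genes). These were the 5 that rose in NT, and Rgs2. Rgs10 and Rgs17 had adjusted p of 4.00e-07 and 4.18e-07 but stayed under 1.5-fold, at -0.58 for both. Their calls in this group depended on the libraries, since Rgs10 passed in 3 and Rgs17 in 2 of the 18 fits that left out a library, and on the scaling, since both passed with upper-quartile scaling (-0.61 and -0.66) and Rgs10 on TPM with limma (-0.69, or -0.70 with a pseudocount of 0.1).

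At single time points at most 2 members were called between IFT88siRNA and NT cells. Rgs16 and Rgs17 were lower at 0 h, where 2.23% of 15274 genes were called and 1.56% were lower. None was called at 1, 2 or 4 h (2.66%, 0.496% and 0.432% of all genes), with 4, 1 and 3 of the 8 members at an adjusted p under 0.05 in edgeR (19.0%, 2.76% and 3.85% of all genes) and 7, 4 and 6 at an unadjusted p under 0.05 (32.4%, 17.2% and 17.9%). Calls appeared at 1 h without NT replicate 2 (Bdkrb1 and Rgs16) or IFT88siRNA replicate 3 (Rgs16), and at 2 h without NT replicate 2 (Rgs17). DESeq2 called none at these time points either. Only Rgs16 was called at 8 h (0.692% called, 0.613% lower) and at 24 h (1.15% and 0.598%), and it was lower at both. At an adjusted p under 0.05 alone, in either direction, 3 of the 8 members passed at 8 h and 4 at 24 h. Of all genes 4.25% and 8.66% did.

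Rgs16 had 0.954, 1.44 and 1.48 CPM in IFT88siRNA at 0 h, from 28, 41 and 42 counts, all under the 3 NT values (log2 -0.88, SE 0.202, adjusted p = 0.00356). After 4 h it had 52.3, 45.0 and 56.5 CPM against 67.7, 66.9 and 77.3 (log2 -0.46, SE 0.0790, adjusted p = 0.0033, under 1.5-fold). At 8 h, 13.9, 10.2 and 12.7 CPM stood against 20.3, 18 and 20.2 (log2 -0.69, SE 0.107, adjusted p = 0.00648), and at 24 h 6.45, 6.96 and 7.31 against 15.9, 13.9 and 14.6 (log2 -1.10, SE 0.0850, adjusted p = 1.66e-06). The groups did not overlap at 5 of the 6 time points, the exception being 2 h. How many of all genes separated in this way was not counted, for Rgs16 or for the members below. The call at 8 h was lost without NT 8 h replicate 3 (adjusted p = 0.0503) and without IFT88siRNA 8 h replicate 2 (-0.57), and on TPM with limma it was lost at 0 h (-0.54, or -0.85 with a pseudocount of 0.1, adjusted p from 0.088 to 0.219) and at 8 h (-0.68 or -0.73, adjusted p from 0.096 to 0.185).

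Rgs17 was below NT at every time point in the mean, and without overlap at 5 of 6, the exception being 8 h. At 0 h it had 8.56, 7.81 and 8.26 CPM against 12.3, 12.3 and 12.9 (log2 -0.61, SE 0.0817, adjusted p = 1.38e-05), and its differences later were -0.30 to -0.58. The call at 0 h was just past the fold threshold, at 1.52-fold, and was lost without IFT88siRNA 0 h replicate 2 (-0.57) and on TPM.

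Bdkrb1 lay on one side of NT before IL-1β and on the other afterwards. At 0 h it was higher in IFT88siRNA, with 0.784, 0.950 and 1.02 CPM from 23, 27 and 29 counts against 0.549, 0.701 and 0.355, a log2 difference of 0.76 (SE 0.290) that missed the threshold (adjusted p = 0.0679) but passed with all 36 libraries in 1 model (0.76, adjusted p = 0.0484). At every later time point all 3 IFT88siRNA libraries were below all 3 NT libraries, as at 1 h with 4.80, 4.49 and 4.65 CPM against 6.68, 6.12 and 7.28 (log2 -0.53, SE 0.114, adjusted p = 0.00428) and at 4 h with 14.5, 17.1 and 14.9 against 19.4, 20.5 and 21.7 (log2 -0.42, SE 0.0833, adjusted p = 0.00971). Both were under 1.5-fold. Its partner Bdkrb2 was lower without overlap at 4 of the 6 time points. These were 1, 4, 8 and 24 h, with adjusted p of 0.124, 0.166, 0.109 and 0.151, so none passed. Its largest difference, lower by 0.37, was at 2 h (29.4, 26.3 and 34.4 CPM against 39.9, 33.9 and 43.0, which overlap, adjusted p = 0.0854).

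The ratio of Bdkrb1 to Bdkrb2 was 0.642 to 0.743 in IFT88siRNA at 0 h, above all 3 NT libraries, and 4.44 to 4.6 at 1 h, below all 3. An exact permutation test of the log2 ratio (two-sided, 3 against 3) gave p = 0.1 at 0, 1, 4 and 24 h, the smallest it can give, with an adjusted p of 0.15 over the 6 time points. With 3 libraries a group, this test cannot reach the threshold. By CPM per kilobase of annotated exons in place of TPM, the groups stayed apart at 0 and 1 h. On that scale they overlapped at 4 h (1.82 to 2.05 in NT and 1.49 to 1.97 in IFT88siRNA). They also overlapped at 24 h (3.24 to 3.42 and 3.24 to 3.55).

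With the 6 time points tested together, Rgs16 (adjusted p = 2.63e-09), Rgs17 (8.77e-10) and Bdkrb1 (1.02e-06) were called among 5.19% of 16710 genes. Rgs16 and Rgs17 were lower in IFT88siRNA at every time point. Bdkrb1 passed the fold only at 0 h, where it was higher (log2 0.762), and its later differences were -0.525 to -0.182. Rgs2, Rgs3, Rgs4 and Bdkrb2 had adjusted p under 0.05, as 31.8% of all genes did, and differences under 1.5-fold. Leaving out NT 0 h replicate 3 left only Rgs16 called, since Bdkrb1 (0.55) and Rgs17 (-0.58) then fell short of the fold, as did Rgs17 without IFT88siRNA 0 h replicate 2 (-0.57).

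Whether the change from 0 h itself differed between the groups was tested over the 5 time points, where 1.20% of genes were called. Bdkrb1 was the member called (adjusted p = 0.0194): its rise was smaller in IFT88siRNA by 1.29 log2 units at 1 h (SE 0.276, adjusted p = 0.00607, 0.598% of genes called), 1.17 at 4 h (SE 0.266, 0.0149, 0.311%) and 1.21 at 8 h (SE 0.267, 0.0136, 0.275%). At 2 h and 24 h the differences of -1.005 (SE 0.272, adjusted p = 0.0544, 0.245% of genes called) and -0.94 (SE 0.267, 0.142, 0.132%) missed the threshold. These differences include the 0 h groups of 8 to 29 counts. Their larger part is the gap at 0 h (log2 0.762 between the groups), beside -0.525, -0.409 and -0.445 at 1, 4 and 8 h. The call was lost without NT 0 h replicate 3 (adjusted p = 0.087), IFT88siRNA 0 h replicate 2 (0.0525) or replicate 3 (0.0669). Rgs2, Rgs3 and Rgs4 passed the adjusted p (0.000235, 0.000673 and 0.00787) at under 1.5-fold, and 5.53% of all genes passed that adjusted p. At 1 h Rgs2 fell less in IFT88siRNA, by 0.321 log2 units (9.89, 9.42 and 10.4 CPM against 7.9, 8.25 and 8.76 in NT). Its largest difference was late and opposite: at 24 h IFT88siRNA had 45.7, 48.2 and 44.1 CPM against 69.1, 67.4 and 61.8 in NT, and its rise was smaller by 0.45 (SE 0.0999). Rgs4 went the other way at 24 h, with 20.9, 21.7 and 19.9 CPM against 16.0, 16.6 and 14.0. That is the difference between the groups at 24 h alone (log2 0.43, SE 0.0734, adjusted p = 0.00182). In its change from 0 h, Rgs4 differed by 0.285 at 24 h and most at 1 h, by -0.367, a smaller rise in IFT88siRNA. For Rgs16 (adjusted p = 0.124, but 0.0335 without IFT88siRNA 2 h replicate 2), Rgs17 (0.536), Bdkrb2 (0.785) and Rgs10 (0.974) a different response was not detected with these libraries. IFT88siRNA libraries had more counts at the median than NT, and the part of this in the differences was not tested.

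**Figure D5:**
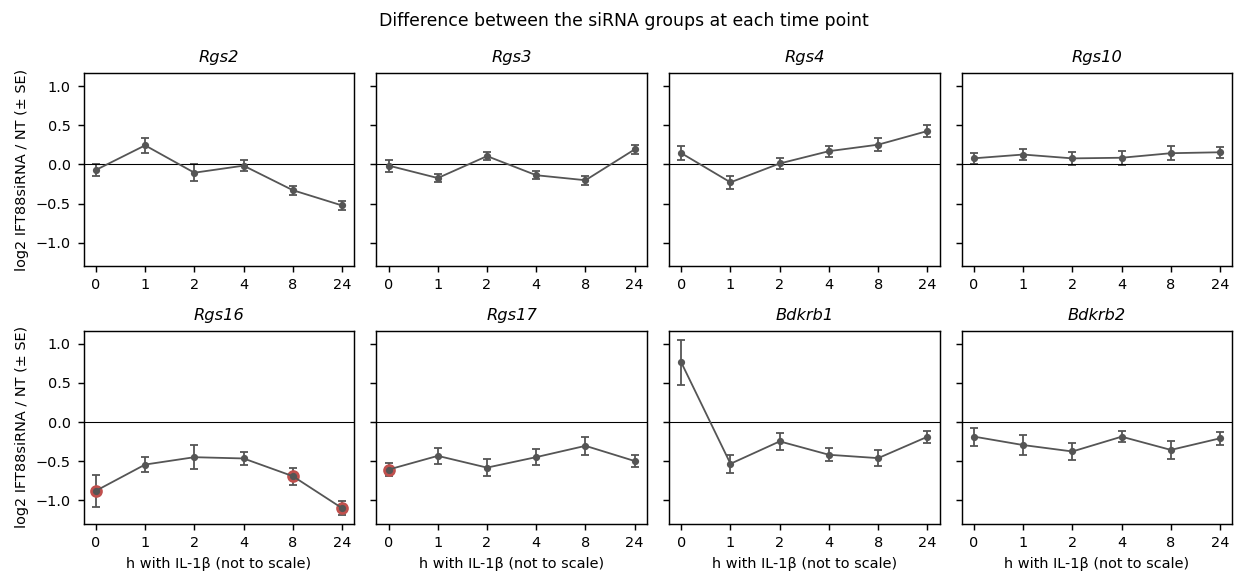
Log2 difference of IFT88siRNA from NT (vertical axis, points with bars of 1 SE, 3 libraries a group) against hours with IL-1β for 8 members, red where the difference passed both thresholds. Rgs16 is red at 0, 8 and 24 h (-0.88, -0.69 and -1.10) and Rgs17 at 0 h (-0.61), while Bdkrb1 lies above 0 at 0 h and below it afterwards.

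Other genes of the pathway were counted by list, for NT over the 5 time points together. Of all genes tested 23.6% rose and 26.3% fell in that test, and the median of the largest log2 change was -0.21. Of 10 tested genes that make, control or degrade kinins, 6 rose and Ace, which degrades bradykinin, fell (median 0.87). The kininogen genes Kng1 and Kng2, which encode the kinin precursors, were scarce, and both were highest at 24 h. Kng1 averaged 0.0419 ± 0.0423 CPM (SD, n = 3) at 0 h and 1.99 at 24 h, and Kng2 0.240 ± 0.0820 and 4.06 (log2 4.05, SE 0.248). They are close copies of each other, so how reads were split between them is uncertain. Serping1, the C1 inhibitor, which restrains kallikrein, went from 26.9 to 93.3 CPM at 8 h (log2 1.80, SE 0.0581). Ace went from 1.62 to 0.731 CPM at 24 h (log2 -1.14). The other 3 genes that rose encode peptidases that cut kinins, and are named here after their values were seen: Mme went from 225 to 441 CPM at 1 h (log2 0.96), Ece1 from 192 to 328 CPM at 2 h (0.77) and Cpm from 0.372 to 1.28 CPM at 4 h (1.79).

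Of 9 other tested RGS genes and anchors, Rgs20 rose (to log2 1.22 at 4 h) and Rgs9bp, Rgs14 and Axin2 fell, all at under 5 CPM (median -0.52). Of 14 Gα genes 2 rose, Gnai3 (log2 0.77 at 2 h) and Gna13 (0.74 at 4 h), and 7 fell, led by Gna14 (-1.57) and Gna15 (-1.37), with a median of -0.66. Among 13 Gβ and Gγ genes Gnb4 rose from 82.3 to 431 CPM at 4 h (log2 2.40), as did Gng4 and Gng2 at under 2 CPM, and Gng8 and Gng3 fell (median 0.47). Grk5 (1.20 at 2 h), Arrb1 (0.83 at 1 h, then -0.79 at 24 h) and Grk2 (0.65 at 24 h) rose among 7 receptor kinases and arrestins, where Grk1 and Grk4 fell (median 0.21). Of 9 Gq effectors 4 rose, among them Prkca (1.07) and Prkcd (0.99) at 4 h, and Plcb1 fell at 8 h (-0.83), with a median of 0.26. Between IFT88siRNA and NT, Rgs11 and Gng3 were called as lower at 0 h, where 2.23% of all genes were called. Over the 6 time points together Rgs11, Gng4 and Cpm, a peptidase that trims kinins, were called as lower. They were 1 each of 9, 13 and 11 tested genes of their lists. The other lists had no call, and of all genes 5.19% were called. Rgs11 and Cpm are named here after their values were seen.

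By mean log2 CPM over the 12 conditions, the genes most like each member among 13257 were found, as a description. The 12 points share libraries and treatment, so high values are common. Bdkrb1 was closest to Ch25h (r = 0.989), Gm5345 (0.988) and Cebpb (0.985), and Bdkrb2 to Creb5 (0.981), Rasa2 (0.979) and Nup54 (0.98). For Rgs16 they were Atf4 (0.954), the chemokine gene Cxcl10 (0.952) and Ccl20 (0.943), for Rgs3 Gm5763 (0.972), Birc3 (0.972) and AI839979 (0.970), and for Rgs4 Tsc22d1 (0.959), Socs1 (0.952) and Taf5l (0.947). Rgs2 was close to Mrpl47 (0.990) and D030056L22Rik (0.983), Rgs10 to Lrrc75b (0.981), Kif1c (0.970) and Hoxc8 (0.966), and Rgs17 to Mreg (0.923), Zfp955b (0.911) and Junos (0.907). Among the members themselves, Rgs3 and Rgs16 were most alike (r = 0.898), followed by Rgs16 and Bdkrb1 (0.871), and Rgs2 and Rgs10 were most opposed (-0.80).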

How the data were processed

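The authors aligned paired-end reads of poly(A) RNA to GRCm38 with HISAT2 2.1.0, counted them per gene with featureCounts (Subread 1.6.3), and deposited these counts without normalization. TPM values were made by the authors with Salmon 0.9.1 and deposited as a second table. Counting used default parameters, which would ignore strand. Each of the 36 libraries was placed in its condition by its labels.

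Counts were tested in R 4.3.3 with edgeR 4.0.16 (TMM scaling, filterByExpr, two-sided quasi-likelihood F-tests, Benjamini-Hochberg adjustment over all genes tested). A gene was called with an adjusted p under 0.05 and over 1.5-fold, at 1 or more time points where several were tested together. NT and IFT88siRNA courses were fitted on 18 libraries each, single time points on 6, and the tests over all time points on 36. The SE is the absolute log2 change over the square root of F. Depth, 19337022 to 38304127 counts, sets the counting error, and reads carry no molecular identifiers. TPM were tested with limma 3.58.1 as log2(TPM + 1), with at least 1 TPM in 3 libraries, as an alternative. Others were DESeq2 1.42.0, RLE or upper-quartile scaling, no filter, no fold threshold, a replicate block, leaving out each library, a pseudocount of 0.1 and 1 model of all libraries. Steps were tested on simulated data, and figures drawn with matplotlib 3.10.9.

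Positions came from GENCODE for GRCm38 and promoter windows from RefSeq. Members, lists and tests were chosen with earlier results of these data known. Genes were named by a rule: the members, Ift88, up to 3 called genes with the largest rise and 3 with the largest fall of each list, and the 3 genes most like each member with a mean CPM of at least 1, of which 1 is not reported here. Cell type markers were listed apart.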

Additional observations from a re-analysis of the deposited data

Results flagged for a closer look

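For 4 members the change from 0 h differed between IFT88siRNA and NT over 5 time points (edgeR, 36 libraries, adjusted p under 0.05). Of all genes 5.53% passed that threshold, and of the members only Bdkrb1 also passed the fold threshold. Its call was lost without NT 0 h replicate 3, IFT88siRNA 0 h replicate 2 or IFT88siRNA 0 h replicate 3. Bdkrb1 rose less in IFT88siRNA (adjusted p = 0.0194, a log2 difference of -1.29 at 1 h), from 0 h levels of 8 to 17 counts in NT and 23 to 29 in IFT88siRNA. Rgs2 (adjusted p = 0.000235, -0.45 at 24 h), Rgs3 (0.000673, 0.21 at 24 h) and Rgs4 (0.00787, -0.37 at 1 h) differed by less than 1.5-fold at their largest. Each condition had 3 libraries, so single libraries were not examined for their distance from the others.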

How the results depend on the processing

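All calls of members, directions and their sides of the threshold were kept with DESeq2 (for the 103 of 104 values it gave) and with RLE size factors. The replicate block (replicate number as a term) changed no call of a member either, with 8 members called over the NT course and 3 over the siRNA differences. Same-numbered NT and IFT88siRNA libraries of a time point had r of -0.133 to 0.223 in their deviations from group means. Of these 18 pairs 2 were above 0.1. Between time points r was -0.206 to 0.226 in NT (5 of 45 pairs above 0.1) and -0.208 to 0.404 in IFT88siRNA (7 of 45). Whether some same-numbered libraries were handled together was not tested.

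Rgs2 in NT at 4 h, called in no setting, turned sign: -0.0863 with upper-quartile scaling, -0.30 with limma on log2(TPM + 1), with or without the filter, -0.32 with a pseudocount of 0.1, and from -0.0216 to 0.0919 when a library was left out. With no fold threshold, 5, 7, 6 and 6 members passed at the 4 steps between time points, 4, 1, 3, 3 and 4 between the siRNA groups from 1 to 24 h, 7 over all time points and 4 in the test of the response, beside 41.4%, 61.4%, 49.4% and 43.4% of all genes at the steps, 19.0%, 2.76%, 3.85%, 4.25% and 8.66% between the groups, 31.8% over all time points and 5.53% for the response. On TPM with limma none of the members was called between the groups at 0 h or 8 h (0 in each of the 3 limma settings), and 1 (Rgs3) between 8 and 24 h in NT and 1 (Rgs16) over all time points, with or without the filter. With a pseudocount of 0.1 it was 1 at 1 h (Bdkrb1). With no filter on counts 1 member (Rgs16) was called at 0 h, and with upper-quartile scaling 1 (Rgs17) at 2 h. Bdkrb1 was gained at 0 h in 1 model of all libraries (adjusted p = 0.0484), Rgs10 and Rgs17 over the IFT88siRNA course with upper-quartile scaling, and Rgs10 on TPM there and in NT at 8 h. The cause of these moves was not tested. Per kilobase of exons, Rgs3 ranked 6 at 0 h and 7 at 4 h. Leaving out 1 library gave 1 to 3 calls between 8 and 24 h, 1 to 2 between the groups at 0 h, 0 to 2 at 1 h, 0 to 1 at 2 h and at 8 h, 1 to 3 over all time points and 0 to 2 for the response. Calls were gained without NT 1 h replicate 2 (Bdkrb1 and Rgs16 at 1 h), IFT88siRNA 1 h replicate 3 (Rgs16 at 1 h) and NT 2 h replicate 2 (Rgs17 at 2 h). Without NT 2 h replicate 2 the fall of Bdkrb2 from 2 to 4 h was called too (log2 -0.599, and -0.487 with all NT libraries). Further gains came without NT 24 h replicate 2 (Rgs4 from 8 to 24 h) and IFT88siRNA 2 h replicate 2 (Rgs16 in the response, adjusted p = 0.0335).

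Counts over all genes moved more. In time order, edgeR called 341, 393, 73, 64, 105 and 175 genes between the groups, and limma on log2(TPM + 1) called 123, 135, 28, 24, 36 and 61, with 143, 133, 28, 25, 36 and 65 at a pseudocount of 0.1 and 75, 51, 11, 13, 22 and 34 with no filter. DESeq2 called 165, 186, 31 and 109 at 0, 1, 4 and 24 h. With no filter on counts it was 137, 100 and 245 at 2, 4 and 8 h, in 1 model of all libraries 142 and 231 at 2 and 8 h, and 115 with the replicate block at 2 h. Over all time points 868 genes became 421 on TPM and 367 on TPM with no filter, and for the response 201 became 345 with no filter on counts and 115 on TPM with no filter. Between 8 and 24 h in NT, 2149 became 1408 on TPM with no filter. Dropping the fold threshold multiplied the counts of calls by 1.77 to 8.91.

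Among the tested members, Bdkrb1 and Rgs16 had the lowest counts, at 0 h (8 to 29 and 28 to 66 a library). Rgs5, at 0 to 12, was not tested. Of 48 member values past no adjusted p, 11 turned sign under an alternative. Bdkrb2 in NT at 8 h, and between the groups Rgs16 at 8 h and Rgs17 at 0 h lie near the thresholds.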
